A study of Mus musculus with 3 samples.

Results

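Transcripts of 10 antioxidant genes, the transcription factor gene Nfe2l2 with Hmox1, Txnrd1, Prdx1, Prdx5, Srxn1, Sod1, Sod2, Gpx1 and Gpx4, were followed in peripheral blood mononuclear cells (PBMCs) of mice. They were taken by symbol from the 32285 genes counted, and all 10 were found in the table. The PBMCs came from 3 groups of female C57BL/6 mice, namely young (8 weeks), aged (16 months) and aged-GA (16 months, given glycyrrhizic acid, GA, a saponin of licorice root, for 1 month). The labels give the treatment of young and aged mice as none, whereas the methods say that GA was injected into the tail vein every other day and that controls received phosphate-buffered saline (PBS) by the same route, without saying which of these mice were such controls. Each group was measured as 1 droplet-based single-cell library, and no source ties a barcode to an animal. With 1 library per group there was no replicate error, no test was run, and a difference between groups cannot be told apart from a difference between libraries.

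NRF2, the protein encoded by Nfe2l2, is held at low levels by KEAP1 and is released when cells meet oxidants or electrophiles. It then pairs with small MAF proteins at antioxidant response elements and raises transcription of genes for glutathione synthesis, the thioredoxin system, haem breakdown and iron storage. Hmox1, Txnrd1, Prdx1 and Srxn1 are classical targets, whereas superoxide dismutases and glutathione peroxidases are antioxidant enzymes whose levels also follow the cell type. In blood, neutrophils and monocytes make superoxide through the NADPH oxidase, and red cells carry peroxidase made before they lose their nucleus.

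In GENCODE M21 (GRCm38), Nfe2l2 lies at chr2:75675513-75704641, Hmox1 at chr8:75093621-75100589, Txnrd1 at chr10:82833951-82897712, Prdx1 at chr4:116685544-116700822, Prdx5 at chr19:6906697-6910106, Srxn1 at chr2:152105516-152111376, Sod1 at chr16:90220754-90226329, Sod2 at chr17:13006846-13040063, Gpx1 at chr9:108338903-108340343 and Gpx4 at chr10:80047166-80056439. Of 300-base promoter windows around RefSeq start sites (GRCm38.p6), 9 of the 10 members had at least 1, and Hmox1 is not in that table. The core of the antioxidant response element, TGACNNNGC, was searched on both strands and was found in the windows of 5 of these 9 genes (Nfe2l2, Txnrd1, Prdx1, Srxn1 and Sod1), against 13.99% of 27025 genes. Counted by window it was in 5 of the 14 windows of these genes (35.71%), against 12.39% of 32851 windows. The match in Srxn1 began at base 28 after the start site. The other 4 are shown here to place the motif beside the levels that follow, 5′ to 3′ on the strand of the gene, with the motif or its reverse complement in capitals.
Nfe2l2, chr2:75704879-75704913, minus strand: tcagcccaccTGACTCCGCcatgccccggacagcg
Txnrd1, chr10:82859098-82859138, plus strand: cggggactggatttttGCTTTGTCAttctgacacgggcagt
Prdx1, chr4:116685450-116685490, plus strand: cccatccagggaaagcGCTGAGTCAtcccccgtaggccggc
Sod1, chr16:90220690-90220730, plus strand: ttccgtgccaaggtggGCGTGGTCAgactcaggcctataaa
The match in Prdx1 also holds the AP-1 motif TGAGTCA, so these letters serve both searches. These matches describe the sequence and do not show binding.

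The filters that the methods of the study name, applied here to each library, left 8851 young, 10238 aged and 12648 aged-GA cells with medians of 4671, 3810 and 4752 UMIs (unique molecular identifiers, 1 for each RNA molecule caught). The paper reports fewer young and aged-GA cells and more aged cells, so its sets of cells differ from these. Between 50 and 62 barcodes were shared by any pair of libraries. Each cell was given to a gate by its marker genes, and the gates held 5125, 1801 and 2720 T cells, 2173, 3961 and 5215 B cells and 307, 225 and 242 NK cells in the young, aged and aged-GA libraries. The myeloid gates held 43, 564 and 185 monocytes and 12, 718 and 452 neutrophils, and the erythroid gate, defined by haemoglobin over 50% of UMIs, held 340, 197 and 903 cells. A leukocyte gate required at least 3 markers of its class and at most 1 marker of another leukocyte class, so the number of other markers was limited by the rule. In the 5 leukocyte gates the median cell carried at least 5 of the markers of its own class in each library. The young neutrophil gate is small, and 42 of the 43 young monocytes were nonclassical, against 350 of 564 aged and 129 of 185 aged-GA monocytes. Levels are counts per 1000000 UMIs (CPM) summed over a gate, with 95% exact Poisson intervals in the plot, and intervals of ratios are exact binomial intervals, both covering counting error only.

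Nfe2l2 itself was found in all leukocyte gates. It stood at 236, 188 and 180 CPM in young, aged and aged-GA monocytes, and at 90.02 (5 UMIs), 165 and 215 CPM in neutrophils. In T cells it was 43.8, 38.3 and 42.4 CPM, in B cells 45.2, 43.6 and 45.6 CPM, and in NK cells 44.9, 46.8 and 56.1 CPM. The ranges of the 3 libraries overlapped between monocytes and neutrophils and did not overlap between either of them and any lymphoid gate. Erythroid cells held 0 UMIs of Nfe2l2 in the young library, which allows up to 0.749 CPM, 0 in the aged library, which allows up to 1.98 CPM, and 14 UMIs (2.03 CPM) in the aged-GA library.

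Hmox1 encodes heme oxygenase-1, which opens the haem ring and releases iron, carbon monoxide and biliverdin. Its level was highest in myeloid gates, with 74.9, 98.8 and 56.5 CPM in monocytes and 54.0 (3 UMIs), 50.1 and 87.0 CPM in neutrophils of the young, aged and aged-GA libraries. T cells held 1.17, 1.78 and 1.66 CPM and B cells 1.07, 1.07 and 1.37 CPM. Over the myeloid gates joined, Hmox1 was 62.9-, 58.5- and 47.6-fold the level of the lymphoid gates joined. After each cell was thinned to 1000 UMIs, Hmox1 was detected in 4.76%, 8.59% and 4.92% of monocytes and in 8.33%, 5.33% and 9.57% of neutrophils, against 0.137%, 0.222% and 0.258% of T cells. Without thinning these shares were 23.3%, 34.2% and 22.2% in monocytes, whose median depths were 3898, 5484 and 4755 UMIs, 16.7%, 11.4% and 20.8% in neutrophils, with medians of 2821, 2222 and 2390 UMIs, and 0.624%, 0.888% and 0.993% in T cells, with medians of 5004, 4523 and 5506 UMIs. Thinning left out at most 24 cells of any of these gates.

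Txnrd1, Prdx5 and Prdx1 of the thioredoxin system each had a different highest gate. Txnrd1, the cytosolic thioredoxin reductase, was the only member whose highest gate in each library was lymphoid: NK cells held 57.6, 74.0 and 80.2 CPM, above T cells at 18.6, 32.7 and 27.0 CPM and B cells at 14.2, 21.5 and 19.1 CPM. Its annotated gene overlaps Eid3 on the same strand, and how reads of the overlap were assigned was not tested. Prdx5, a peroxiredoxin found in mitochondria, peroxisomes and the cytosol, was highest in neutrophils, with 2521, 1805 and 1615 CPM, then in monocytes, with 792, 1225 and 886 CPM, and it was 93.5, 119 and 107 CPM in T cells. Prdx1, the main cytosolic peroxiredoxin, had another order. It was highest in monocytes at 444, 503 and 406 CPM, was 211, 252 and 221 CPM in T cells, and was low in neutrophils at 20.8 CPM in the aged and 22.7 CPM in the aged-GA library. The 12 young neutrophils held 0 UMIs of Prdx1, which allows up to 54.0 CPM. Prdx1 and Prdx5 thus ranked monocytes and neutrophils in opposite order in the aged and aged-GA libraries, where Prdx1 was 24.1- and 17.9-fold higher in monocytes while Prdx5 was 0.679 and 0.548 of its neutrophil level.

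Srxn1 encodes sulfiredoxin, which repairs overoxidised peroxiredoxins, and was the rarest member, with 15, 136 and 109 UMIs in all kept cells of the young, aged and aged-GA libraries. Neutrophils held 10.4 and 13.9 CPM in the aged and aged-GA libraries, NK cells 4.88, 7.40 and 14.9 CPM, and T cells 0.146, 0.666 and 0.615 CPM. No gate held over 21 UMIs of it, and the ranges of neutrophils, NK cells and monocytes overlapped.

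The superoxide dismutases were spread more evenly. Sod1, the cytosolic copper and zinc enzyme, was 134, 104 and 87.0 CPM in monocytes and 73.9, 110 and 82.5 CPM in T cells, ranges that overlapped, and was lower in B cells at 46.9, 61.6 and 47.8 CPM. Neutrophils held 23.8 CPM of Sod1 in the aged and 34.4 CPM in the aged-GA library. Sod2, the mitochondrial manganese enzyme, was 166, 127 and 124 CPM in monocytes, 115, 93.7 and 110 CPM in NK cells, and 66.3 to 87.3 CPM over T and B cells of the 3 libraries. Aged and aged-GA neutrophils held 28.8 and 29.3 CPM of Sod2, so both dismutases were lower there than in each lymphoid gate. The 12 young neutrophils held 15 UMIs of Sod2 (270 CPM), a value far above the other libraries that rests on those few cells.

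Gpx1, the cytosolic glutathione peroxidase, followed monocytes and red cells. It was 3490, 2462 and 2167 CPM in monocytes, 1730, 1134 and 978 CPM in erythroid cells and 846, 642 and 525 CPM in neutrophils of the young, aged and aged-GA libraries, against 136, 139 and 114 CPM in T cells and 93.8, 99.8 and 74.4 CPM in NK cells. The ranges of the 3 libraries lay apart between each gate and the next in this order. Because haemoglobin took 93.16%, 93.39% and 93.06% of UMIs of the erythroid gate, Gpx1 was 25267, 17147 and 14092 CPM there on the remaining UMIs, above monocytes. The same share of haemoglobin lowers the CPM of each other member in this gate, among them Sod2 at 17.2, 15.8 and 14.2 CPM. On the remaining UMIs erythroid Sod2, like Gpx1, was above monocytes in each library. Gpx4, the selenoenzyme that reduces lipid peroxides in membranes, was flatter. It was 306, 333 and 338 CPM in NK cells, 270, 341 and 334 CPM in neutrophils and 155, 374 and 265 CPM in monocytes, ranges that overlapped, and 164, 193 and 189 CPM in T cells.

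**Figure D1:**
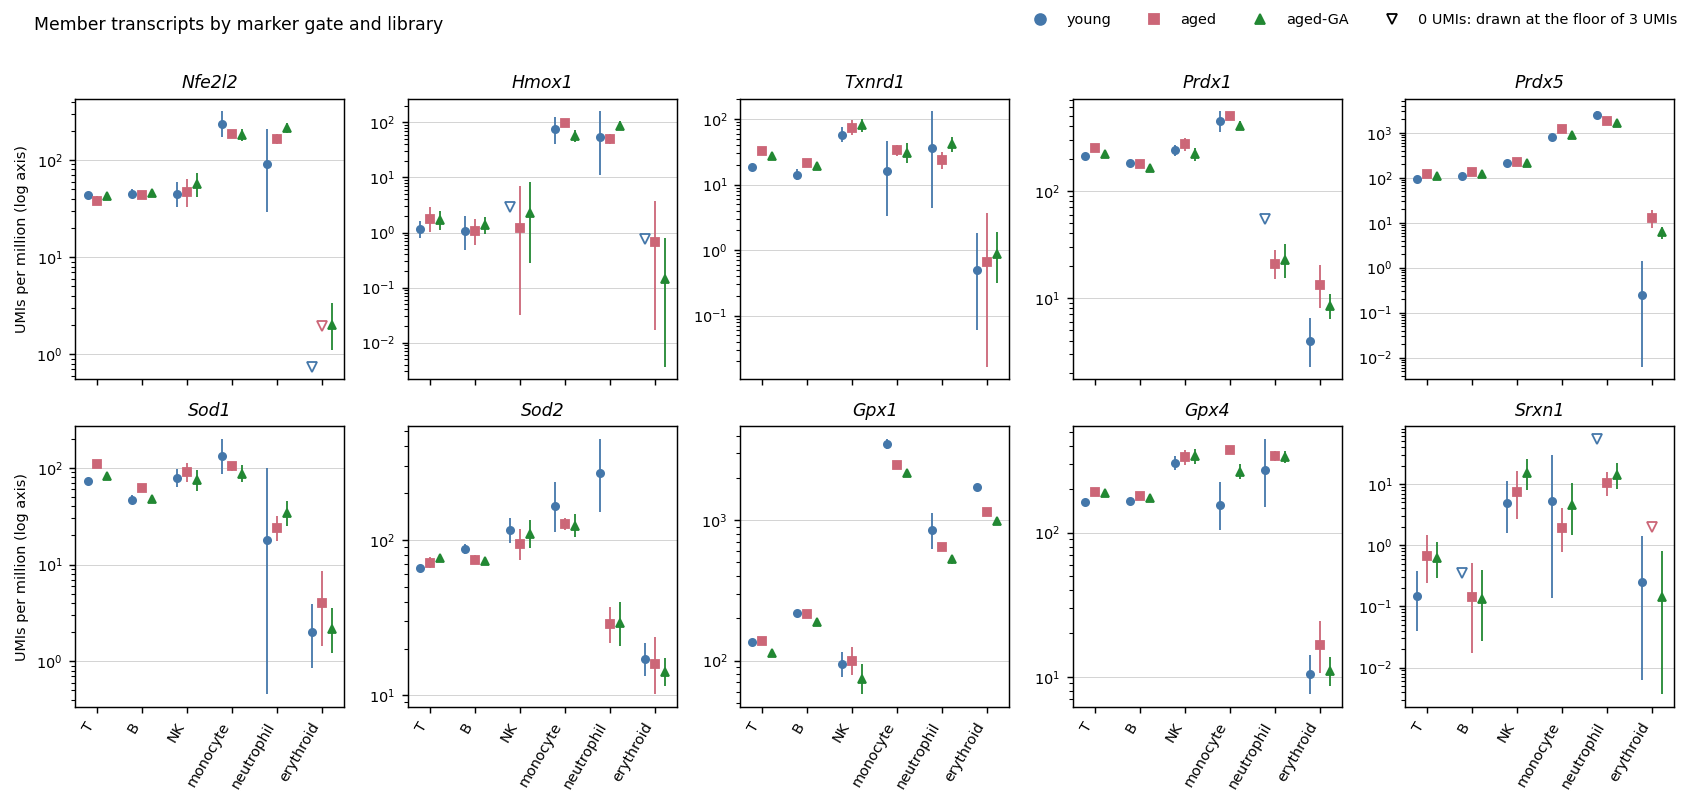
Level of each of the 10 members in CPM (log axis) in 6 marker gates, with circles for young, squares for aged and triangles for aged-GA libraries, bars for 95% Poisson intervals and open triangles for 0 UMIs drawn at the floor of 3 UMIs. Hmox1, Prdx5 and Gpx1 stand higher in monocytes than in T, B and NK cells in each library, and Prdx1 and Sod2 are low in aged and aged-GA neutrophils. On all UMIs, haemoglobin included, Gpx1 alone is high in erythroid cells.

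By the median over the 3 libraries, 9 of the 10 members were highest in a myeloid gate, Txnrd1 being the exception, and for Gpx4 neutrophils (334 CPM) and NK cells (333 CPM) were nearly level. When haemoglobin and mitochondrial UMIs were left out of the total, this count was 6 of 10. The share of all genes that were highest in a myeloid gate was not computed. In single libraries Gpx4 was highest in NK cells (young and aged-GA) or monocytes (aged), and in none in neutrophils. Sod1 was highest in T cells in the aged library, and Srxn1 in NK cells in the aged-GA library. Similarity of levels was taken over 17 points, each a class of cells in 1 library with at least 50 cells. Young monocytes and neutrophils (43 and 12 cells) were thus left out, and the 88 aged basophils were a point. Among 8556 genes, those whose log2 level was most like Nfe2l2 were Ints12 (Pearson r = 0.996) and Fem1c (0.990). For Hmox1 they were Abcd2 (0.982) and Rab32 (0.980), for Txnrd1 Lfng (0.978) and Gpr65 (0.974), for Prdx1 Mydgf and Snd1 (both 0.985), for Prdx5 Cd44 (0.988) and Tmcc1 (0.981), and for Srxn1 Arap3 (0.962) and Ccl3 (0.945). For Sod1 they were Impad1 (0.986) and Cnpy2 (0.985), for Sod2 Mpp6 (0.979) and Commd10 (0.978), for Gpx1 Slc16a10 (0.904) and Specc1 (0.876), and for Gpx4 Selenok (0.989) and Chmp5 (0.986). Points of 1 library share that library, so these values are descriptions. The erythroid gates are among the points, where haemoglobin lowers the CPM of other genes, and r without these gates was not computed. Of the 10 members, Gpx1 had the lowest r with its nearest gene.

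Many member transcripts of the aged library lay outside the gates. A cell that carried over 1 marker of another leukocyte class was left out, and in the aged library this removed 813 cells with mostly monocyte markers, more than the 564 in the monocyte gate, against 28 in the young and 219 in the aged-GA library. They held 55.7% of Hmox1, 44.5% of Gpx1 and 43.6% of Prdx5 UMIs of all kept aged cells. Their median of 9901 UMIs was above the 5484 of gated aged monocytes, among which classical cells had a median of 9295 and nonclassical cells of 3676 UMIs. Their Hmox1 stood at 96.4 CPM in the aged and 59.5 CPM in the aged-GA library, close to the gated monocytes of the same libraries (98.8 and 56.5 CPM), and their Prdx5 at 1413 and 1036 CPM. Why these cells carried markers of another class, for example as cell pairs in 1 droplet or through free RNA, was not tested.

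**Figure D2:**
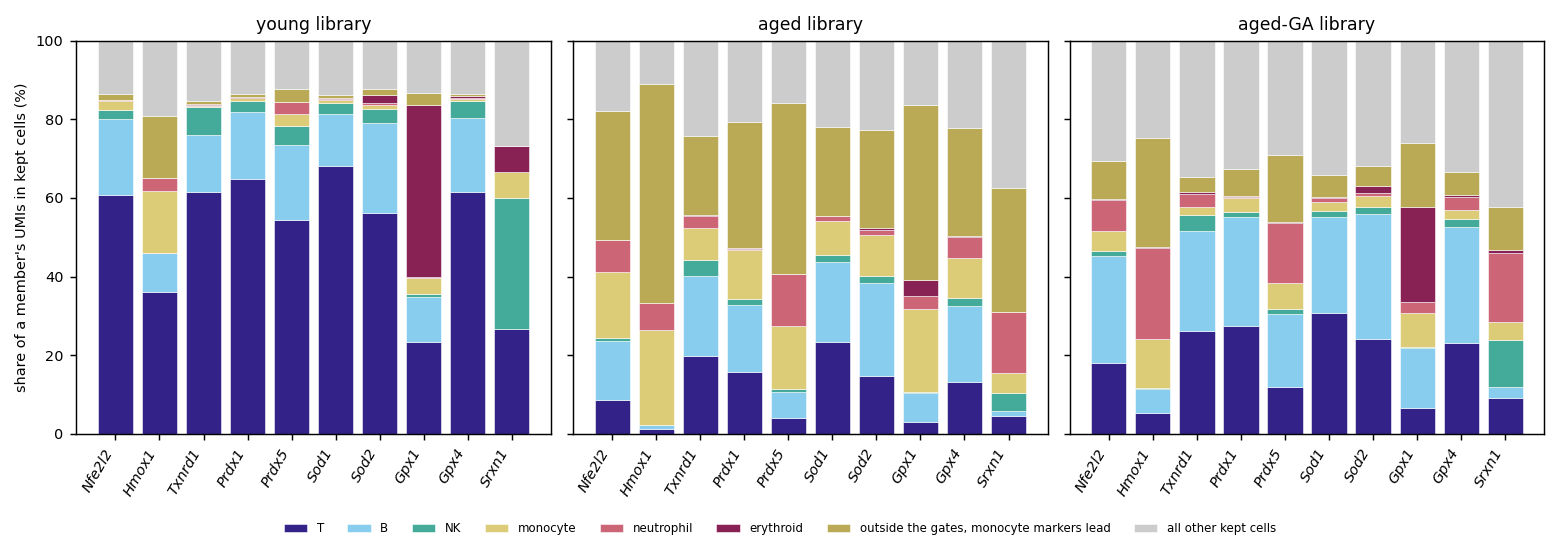
Share of each member's UMIs in kept cells (percent, stacked to 100) held by the 6 gates, by cells outside the gates whose markers were mostly of monocytes, and by all other kept cells, in the young, aged and aged-GA libraries. T and B cells hold most of 7 members in the young library, whereas in the aged library cells with monocyte markers outside the gates hold 55.7% of Hmox1 and 20.1% of Txnrd1.

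The first comparison asked how the members differed between aged and young mice. Over all kept cells, 7 of 10 members were at least 1.5-fold higher in the aged library, where 37.2% of 12894 genes were, and none was lower by that size. Hmox1 went from 1.85 to 27.3 CPM (log2 ratio 3.89, 95% interval 3.58 to 4.21), Srxn1 from 0.311 to 2.53 CPM (3.02, 2.25 to 3.90) and Prdx5 from 97.6 to 512 CPM (2.39, 2.35 to 2.44). Gpx1 went from 329 to 771 CPM (1.23), Nfe2l2 from 40.9 to 75.7 CPM (0.89), Gpx4 from 151 to 245 CPM (0.70) and Txnrd1 from 17.1 to 27.6 CPM (0.69). Prdx1 (0.55), Sod1 (0.36) and Sod2 (0.30) were within 1.5-fold. The median of the members was 0.79, beside 0.37 for all genes counted.

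These sums mix classes of cells whose numbers differed. Monocytes made up 0.455% of UMIs in the 6 gates of the young and 11.6% of those of the aged library, and neutrophils 0.135% and 6.497%. Over the 6 gates alone, Hmox1 had a ratio of 3.48, Prdx5 of 1.90, Gpx1 of 0.69, Nfe2l2 of 0.66 and Gpx4 of 0.48. When the levels of the aged gates were weighted by the make-up of the young library, Hmox1 was 2.02 CPM against 1.41 CPM (0.51), Prdx5 121 against 96.8 CPM (0.32), Gpx1 262 against 323 CPM (-0.31), Nfe2l2 36.7 against 40.8 CPM (-0.15) and Gpx4 0.22 higher on the log2 scale. Txnrd1 kept its ratio, at 28.3 against 16.9 CPM (0.74), and Srxn1 was 1.34 higher on few UMIs. Hence, of the 7 members, Gpx4 was within 1.5-fold over the gates alone, Hmox1, Prdx5, Gpx1 and Nfe2l2 were so only at the fixed make-up, and Txnrd1 and Srxn1 were past it in each sum. Monocytes were 0.486% of kept cells in the young and 5.51% in the aged library, with medians of 3898 and 5484 UMIs per cell, and neutrophils 0.136% and 7.01%, with medians of 2821 and 2222 UMIs.

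**Figure D3:**
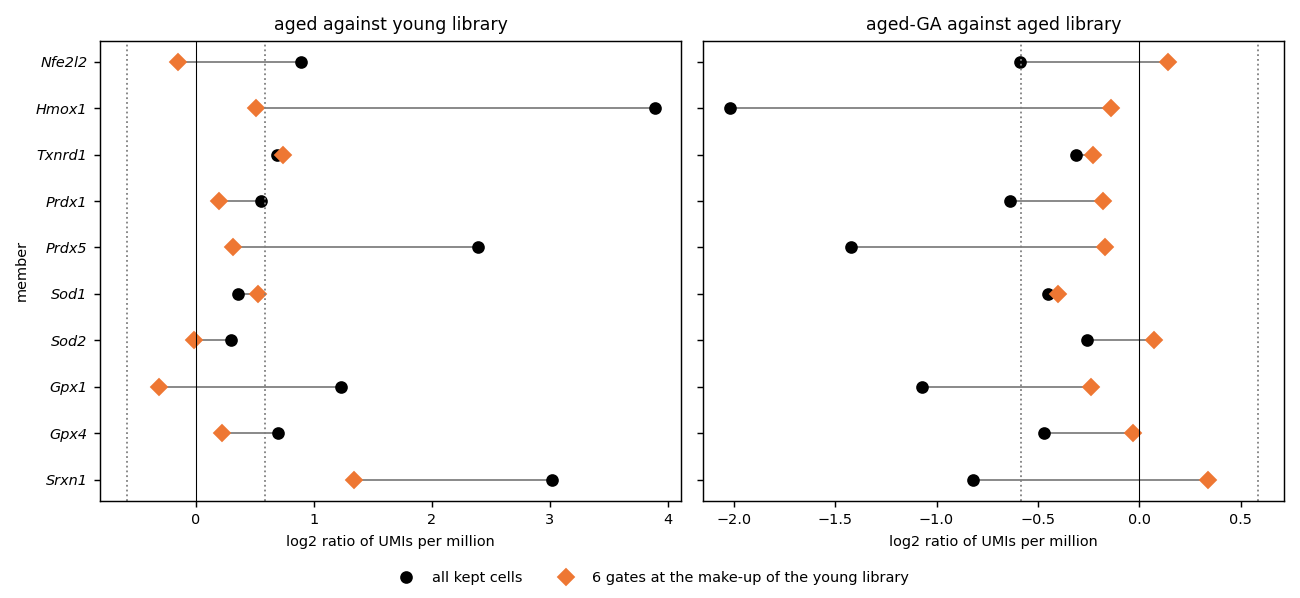
Log2 ratio of CPM for each member, aged against young (left) and aged-GA against aged (right), over all kept cells (circles) and over the 6 gates at the make-up of the young library (diamonds), with dotted lines at 1.5-fold. Hmox1 moves from 3.89 to 0.51 on the left and from -2.02 to -0.14 on the right, while Txnrd1 stays at 0.69 and 0.74 on the left.

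Within gates, a ratio was counted where at least 20 UMIs were expected in the library with the smaller total, which left 34 of 60 pairs of member and gate. Hmox1 and Srxn1 were counted in no gate. Of the 34 pairs, 5 were past 1.5-fold, 4 higher and 1 lower in the aged library. In T cells this was 1 of 8 members, where 32.8% of 9527 genes were past 1.5-fold, in B cells 1 of 8 (27.5% of genes), in NK cells 0 of 8 (20.4%), in monocytes 2 of 6 (29.7%), in neutrophils 0 of 2 (40.7%) and in erythroid cells 1 of 2 (52.8%). None of these shares of members except that of monocytes exceeded the share of all genes.

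Txnrd1 was the member past 1.5-fold in both T cells (0.82, 0.61 to 1.03) and B cells (0.60, 0.29 to 0.92). It was higher in CD4 T cells, at 13.6 and 29.8 CPM in the young and aged libraries, and in CD8 T cells, at 21.1 and 35.6 CPM, where 33.6% and 26.8% of genes were past 1.5-fold. In NK cells its ratio was 0.36 (-0.18 to 0.90). The median of all genes counted was 0.33 in T cells and 0.26 in B cells, so that relative to the median gene Txnrd1 was 0.48 and 0.34 higher, both within 1.5-fold. Centring also turned the split of genes past 1.5-fold in T cells from 2756 higher and 369 lower to 1142 higher and 991 lower, and in B cells from 2316 and 342 to 1019 and 853. Sod1 came next in T cells, at 73.9 and 110 CPM (0.57, 0.46 to 0.68), past 1.5-fold in CD8 T cells (0.60, 0.44 to 0.77) and short of it in CD4 T cells (0.58, 0.35 to 0.80), and was 0.39 in B cells. Gpx4 was 0.50 (0.35 to 0.66) in CD4 and -0.01 (-0.14 to 0.11) in CD8 T cells. In T and B cells Prdx5 (0.34 and 0.30) was within 1.5-fold, and Gpx1 (0.03 and -0.02) had intervals that held 0.

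Gpx4 in monocytes had the largest of the 5 ratios. It stood at 155 CPM (29 UMIs) in the young and 374 CPM in the aged library (1.27, 0.74 to 1.85). Among nonclassical monocytes alone it was 159 and 243 CPM (0.61, 0.06 to 1.22), and aged classical monocytes held 482 CPM, so the difference within the subset was smaller than that over all monocytes. Prdx5 in monocytes was 792 and 1225 CPM (0.63, 0.39 to 0.88) and among nonclassical monocytes 768 and 1016 CPM (0.40, 0.15 to 0.67), within 1.5-fold. Hmox1 passed the minimum among nonclassical monocytes, at 79.7 CPM (14 UMIs) and 137 CPM (0.78, 0.01 to 1.68). In that subset 15.8% of 1397 genes were past 1.5-fold. Gpx1 was lower in aged monocytes (-0.50, -0.62 to -0.39), and among nonclassical monocytes the ratio was -0.17 (-0.29 to -0.05). In neutrophils Prdx5 was 2521 CPM in the 12 young and 1805 CPM in the aged cells (-0.48, -0.73 to -0.23), whereas among neutrophils with few granule transcripts, 7 young and 633 aged, it was 935 and 1477 CPM (0.66, -0.07 to 1.5), where 32.2% of genes were past 1.5-fold. In granule-rich neutrophils, 5 young and 85 aged, Prdx5 was 3164 and 2606 CPM (-0.28, -0.54 to -0.01) and Gpx1 861 and 521.5 CPM (-0.72, -1.24 to -0.17), where 24.7% of genes were past 1.5-fold. These subset values rest on few young cells.

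Gpx1 was the member past 1.5-fold in erythroid cells, with 1730 CPM in the young and 1134 CPM in the aged library (-0.61, -0.69 to -0.53). The median of all genes counted there was -0.29, and relative to it Gpx1 was -0.32. Other transcripts of red cells in the wider list stood lower too, among them Prdx2, the peroxiredoxin of red cells, from 888 to 583 CPM, and Blvrb, biliverdin reductase B, from 619 to 352 CPM. On UMIs without haemoglobin, Gpx1 was 25267 and 17147 CPM, a ratio within 1.5-fold.

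**Figure D4:**
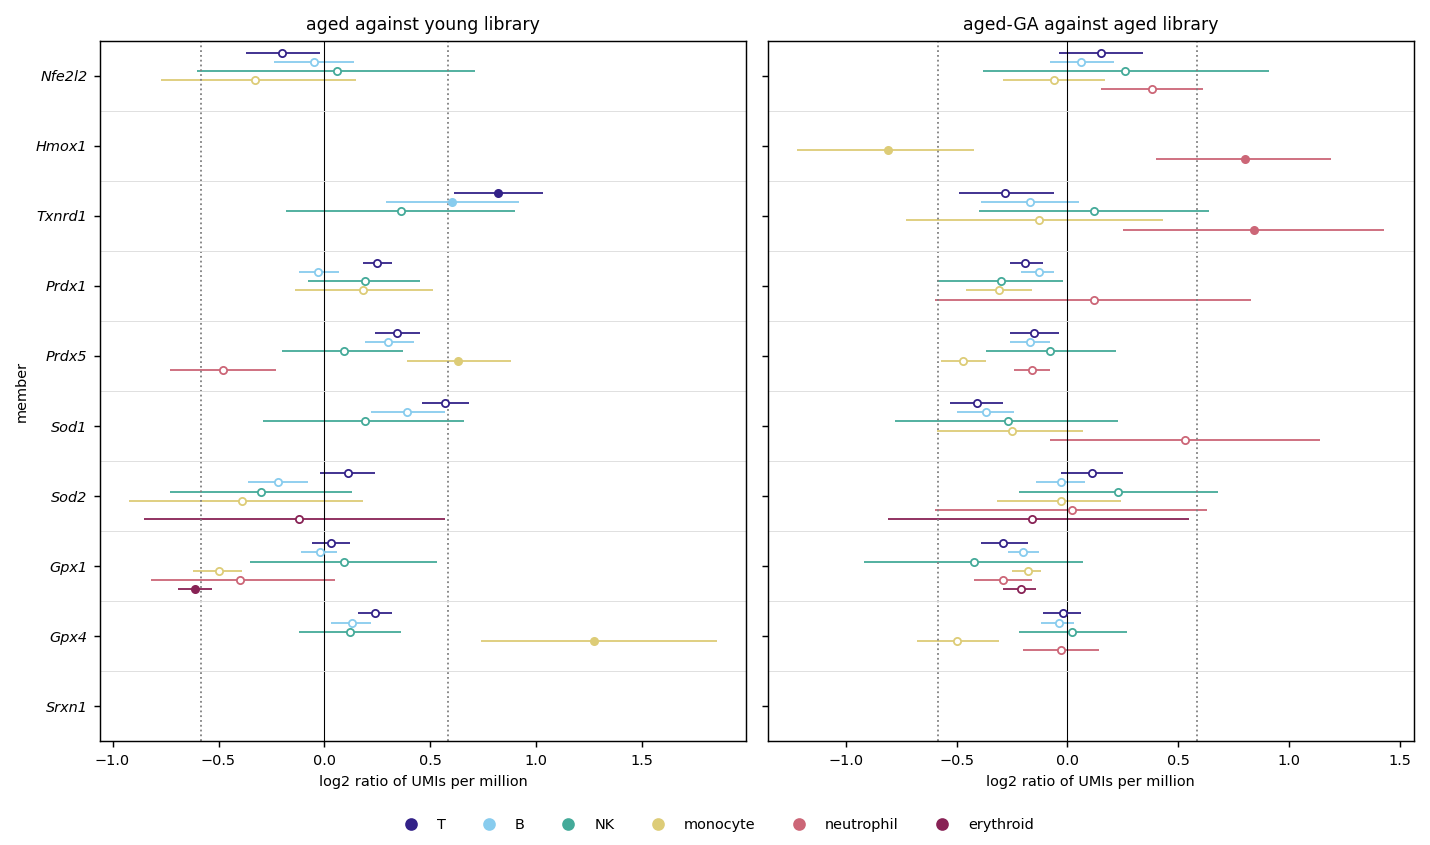
Log2 ratio of CPM with 95% binomial interval for each member and gate with enough UMIs, aged against young (left) and aged-GA against aged (right), filled where past 1.5-fold (dotted lines). On the left 5 of 34 points are filled, Gpx4 in monocytes at 1.27 being the farthest, and on the right 3 of 44, with Hmox1 at -0.81 in monocytes and 0.80 in neutrophils.

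The second comparison asked how GA treatment of aged mice differed from aging alone, and it shares the aged library with the first. Over all kept cells, 6 of 10 members were at least 1.5-fold lower in the aged-GA library, where 14.6% of 13110 genes were. Hmox1 went from 27.3 to 6.74 CPM (-2.02, -2.17 to -1.87), Prdx5 from 512 to 192 CPM (-1.42), Gpx1 from 771 to 366 CPM (-1.07), Srxn1 from 2.53 to 1.44 CPM (-0.82), Prdx1 from 270 to 174 CPM (-0.64) and Nfe2l2 from 75.7 to 50.3 CPM (-0.59). All 10 ratios were below 0, with a median of -0.61 beside -0.10 for all genes counted, whose share below 0 was not computed. Over the 6 gates alone the ratio was -1.67 for Hmox1, -1.18 for Prdx5, -0.68 for Gpx1, -0.48 for Nfe2l2, -0.44 for Prdx1 and -0.38 for Srxn1, the last 3 within 1.5-fold before the make-up was fixed. Monocytes made up 2.27% and neutrophils 2.78% of the UMIs of the 6 aged-GA gates. At the make-up of the young library, no member was past 1.5-fold, with Hmox1 at 1.83 against 2.02 CPM (-0.14), Prdx5 at 108 against 121 CPM (-0.17), Gpx1 at 222 against 262 CPM (-0.24) and Sod1 the lowest at -0.40. That make-up holds 0.455% monocyte and 0.135% neutrophil UMIs, so differences within these gates have little weight in this sum.

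Within gates 44 of 60 pairs were counted and 3 were past 1.5-fold. They were 0 of 8 members in T cells (5.11% of genes), B cells (4.61%) and NK cells (10.9%), 1 of 9 in monocytes (7.84%), 2 of 9 in neutrophils (9.99%) and 0 of 2 in erythroid cells (15.8%). In monocytes Hmox1 was 98.8 CPM (355 UMIs) in the aged and 56.5 CPM (63 UMIs) in the aged-GA library (-0.81, -1.22 to -0.42). The same direction stood in nonclassical monocytes, at 137 and 65.6 CPM (-1.07), and in classical monocytes, at 70.9 and 41.0 CPM (-0.79). In these subsets 8.87% and 8.77% of genes were past 1.5-fold, and Sod1 was the other member past it, in classical monocytes, at 110 and 59.5 CPM (-0.89, -1.5 to -0.33). Averaged over cells rather than UMIs, the ratio in monocytes was -0.49. The interval of its thinned share of cells in aged monocytes, 6.40% to 11.2%, overlapped that in aged-GA monocytes, 2.27% to 9.13%.

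Neutrophils went the other way for this gene. Hmox1 was 50.1 CPM (101 UMIs) in aged and 87.0 CPM (119 UMIs) in aged-GA neutrophils (0.80, 0.40 to 1.19). Txnrd1 was 23.3 CPM (47 UMIs) and 41.7 CPM (57 UMIs) there (0.84, 0.25 to 1.43), and Nfe2l2 was 165 and 215 CPM (0.38, 0.15 to 0.61). Among neutrophils with few granule transcripts Hmox1 was 56.6 and 115 CPM (1.02), where 10.8% of genes were past 1.5-fold, and in granule-rich neutrophils it rested on 20 and 9 UMIs. Cells with mostly neutrophil markers that stayed outside the gate, 157 aged and 152 aged-GA, held 48.1 and 32.8 CPM of Hmox1, the opposite direction, and with no limit on other markers the ratio of the gate was 0.41, within 1.5-fold. Txnrd1 in those cells outside the gate was nearly level, at 31.79 CPM in the aged and 32 CPM in the aged-GA library. Mitochondrial reads were a median of 0.337% in aged and 0.580% in aged-GA neutrophils, and the part of this difference in the ratios was not tested.

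**Figure D5:**
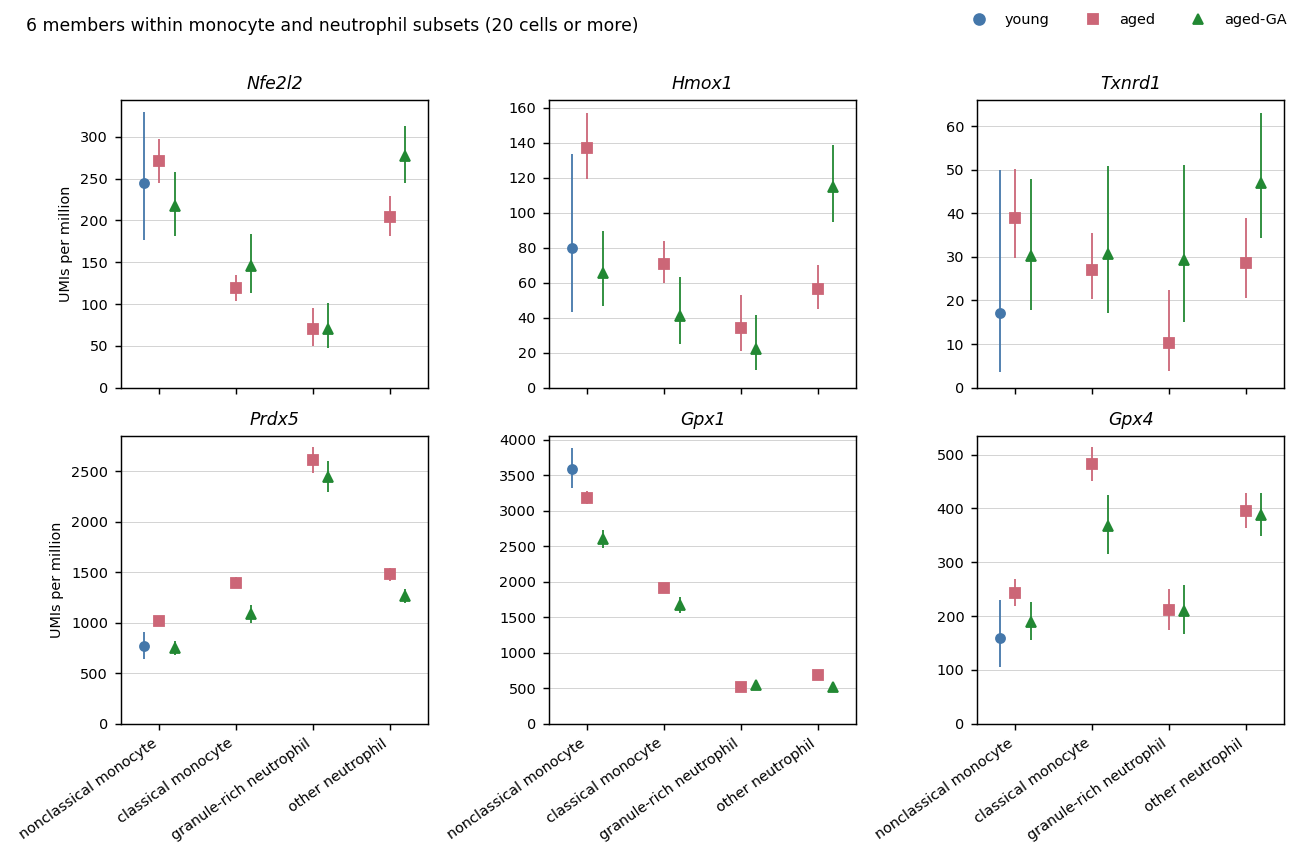
Level of 6 members in CPM with 95% Poisson intervals in monocyte and neutrophil subsets with at least 20 cells, young (circles), aged (squares) and aged-GA (triangles). In nonclassical monocytes Hmox1 is 79.7, 137 and 65.6 CPM in the 3 libraries, Gpx4 is higher in classical than in nonclassical monocytes, and Hmox1 is 56.6 and 115 CPM in aged and aged-GA neutrophils with few granule transcripts.

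All 9 members counted in monocytes were lower in the aged-GA library, with a median of -0.25 beside 0.07 for 5725 genes. How many of those genes were lower by any amount was not counted. Prdx5 (-0.47, -0.57 to -0.37) and Gpx4 (-0.50, -0.68 to -0.31) had the next largest differences, each within 1.5-fold, and Nfe2l2 was 188 and 180 CPM. In nonclassical monocytes Prdx5 was -0.45 and Gpx4 -0.37, and in classical monocytes -0.37 and -0.39. Not all members were lower within the subsets. In nonclassical monocytes 8 of 9 counted were below 0 and 1 above (median -0.32 beside 0.06 for all genes). In classical monocytes 7 of 8 were below 0 and 1 above (-0.34 beside -0.0013). In T cells the median was -0.17 beside -0.05 for all genes, and in B cells -0.15 beside -0.04. Sod1 was the lowest member in both, at -0.41 (-0.53 to -0.29) and -0.37 (-0.50 to -0.24), which placed it at 82.5 and 47.8 CPM in the aged-GA library, between the young and aged values. Gpx1 was -0.29, -0.20, -0.18, -0.29 and -0.21 in T cells, B cells, monocytes, neutrophils and erythroid cells, below 0 in each with intervals that left out 0, and -0.42 (-0.92 to 0.07) in NK cells.

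Other genes of the pathway were taken from a list of 62. Among these and the 10 members, 72 genes in all, the highest 5 by UMIs in lymphoid gates joined were Fth1 and Ftl1, the ferritin chains, Txnip, which binds thioredoxin, the selenoprotein gene Selenow and Park7, a protein sensitive to oxidation. Fth1 stood at 2109, 2210 and 2393 CPM and Txnip at 1562, 742 and 824 CPM in the young, aged and aged-GA libraries. In myeloid gates they were Fth1, Ftl1, the methionine sulfoxide reductase gene Msrb1, and the members Gpx1 and Prdx5, and in erythroid cells Ftl1, Gpx1, Fth1, Prdx2 and Blvrb.

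Aged against young, 10 of 49 counted genes of this list were past 1.5-fold higher and 3 lower in T cells, where 28.9% and 3.87% of all genes were. Nfe2l1, a relative of NRF2, was 10.8 and 30.1 CPM (1.48), the small MAF gene Mafg 7.97 and 21.4 CPM (1.43) and glutaredoxin Glrx 13.9 and 32.4 CPM (1.22). Txnip was 1568 and 624 CPM (-1.33), and Mgst3 (-0.70) and Sesn1 (-0.62) were lower too. In B cells 9 of 52 were higher and 3 lower (23.9% and 3.53% of all genes), led by glutathione reductase Gsr, at 2.86 and 9.52 CPM (1.74), Nfe2l1 (0.91) and glutathione synthetase Gss (0.89), with Sesn1 (-0.99), Txnip (-0.89) and Maff (-0.59) lower. Monocytes had Selenow (0.61) higher and Txnip (-1.84) and Tkt (-0.76) lower among 17 counted, where 14.2% and 15.5% of genes were. Among nonclassical monocytes alone, 42 young and 350 aged cells, 2 of 16 were higher and 4 lower, where 8.8% and 7.02% of genes were. Neutrophils had Msrb1 (1.11), Txn1 (0.79) and Pgd (0.66) higher among 10, where 32.9% of genes were. Among neutrophils with few granule transcripts 0 of 6 counted were past 1.5-fold, where 32.2% of genes were. In granule-rich neutrophils 0 of 8 were higher and 1 lower, where 10% and 14.7% of genes were. In erythroid cells 7 of 12 were lower, where 33.5% of genes were, led by Txnrd2 (-1.02), Mgst3 (-1.01) and Blvrb (-0.82), and Selenow (0.62) was higher (19.2% of genes). NK cells had 3 higher and 5 lower of 35 (12.5% and 7.88% of genes). Txnip was thus past 1.5-fold lower in the T, B and monocyte gates, as it was in NK cells (-1.42), and it was 612 and 804 CPM (0.39) in neutrophils.

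Aged-GA against aged, few genes of the list were past 1.5-fold. Neutrophils had 5 of 35 higher and 0 lower, where 7.24% of genes were higher. They included Slc7a11, the cystine transporter, at 410 and 755 CPM (0.88), its partner Slc3a2, at 50.1 and 76.8 CPM (0.62), and Maff (0.65). Among neutrophils with few granule transcripts 3 of 29 were higher and 1 lower, where 7.38% and 3.38% of genes were. Granule-rich neutrophils had 1 of 21 higher and 0 lower, where 7.75% and 4.94% of genes were. Monocytes had Blvra (0.62) and the glutathione synthesis gene Gclm (0.60) higher and 4 lower, with Mgst3 (-0.85), Glrx5 (-0.71) and Gstp1 (-0.70) the lowest, of 44 counted, where 4.3% of genes were higher and 3.55% lower. Gstp1, which has near-identical copies beside it in the genome, was the 1 gene of 49 lower in T cells (-0.65), where 3.2% of genes were, and was lower in B cells (-0.59). There Mgst1 (-0.65) was lower too and Maff (0.64) higher, so that 2 of 52 were lower and 1 higher (2.66% and 1.96% of genes). Txnip (0.78) was the 1 gene of 11 higher in erythroid cells (12% of genes), and NK cells had 3 higher and 2 lower of 35 (6.69% and 4.16% of genes).

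Of 6 genes of the NADPH oxidase, 4 of 5 counted were past 1.5-fold higher in aged than in young T cells (28.9% of all genes), with Cybb from 0.841 to 15.6 CPM, against 2 of 6 in B cells (23.9%) and 0 of 6 in monocytes (14.2%). In neutrophils, 12 young and 718 aged cells, 1 of 5, Cybb itself, was lower (-1.73), where 7.76% of genes were. Granule-rich neutrophils, 5 young and 85 aged, had 1 of 5 lower, where 14.7% of genes were. Among neutrophils with few granule transcripts only 1 gene of the 6 was counted, and 0 were past 1.5-fold (32.2% of genes). Aged-GA against aged, 2 of 6 were lower in T cells (3.2% of genes) and 0 of 6 were past 1.5-fold in B cells, monocytes or neutrophils. Among neutrophils with few granule transcripts 1 of 6 was lower (3.38% of genes), and in granule-rich neutrophils 0 of 6 were past 1.5-fold (12.7% of genes). Cybb is a phagocyte and B cell gene, and its T cell level moved with that of Lyz2, a myeloid transcript, which stood at 0.877, 95.4 and 27.3 CPM in T cells of the young, aged and aged-GA libraries and at 8587, 15380 and 13186 CPM in monocytes. In T cells Lyz2 was thus 0.0102%, 0.620% and 0.207% of its monocyte level, below Hmox1, at 1.56%, 1.80% and 2.94%, and Prdx5, at 11.8%, 9.68% and 12.1%. Of the 12 markers of monocytes, 3 were at 0 in young T cells, 0 in aged and 1 in aged-GA T cells, and their summed level was 18.6, 55.6 and 43.9 CPM. Haemoglobin took 0.487%, 3.89% and 2.60% of the UMIs of T cells. In B cells Lyz2 was 1.67, 128 and 36.4 CPM in the young, aged and aged-GA libraries. Gsr, at 2.86 and 9.52 CPM in young and aged B cells, was 640 CPM in aged monocytes and 1384 CPM in aged neutrophils. The part of free RNA in the lymphoid ratios was not tested.

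Of 14 genes of stress at dissociation, 8 of 13 counted were past 1.5-fold lower in aged than in young B cells, where 3.53% of all genes were (median -0.69 beside 0.26), and 2 of 14 were higher and 2 lower in T cells, where 28.9% and 3.87% were (median -0.26 beside 0.33). In monocytes 1 of 10 was higher and 3 lower, where 14.2% and 15.5% were (-0.54 beside -0.02). In neutrophils, 12 young and 718 aged cells of which 5 and 85 were granule-rich, 5 of 8 were higher, where 32.9% were (0.70 beside 0.31). Among neutrophils with few granule transcripts 1 of 8 was higher, where 21.1% were (-0.29 beside 0.08). Granule-rich neutrophils had 1 of 4 higher and 1 lower, where 10% and 14.7% were (0.05 beside -0.10). Aged-GA against aged, the medians of these genes were 0.40 in B cells, 0.14 in T cells, 0.30 in monocytes and 0.28 in neutrophils. Those of all genes counted were -0.04, -0.05, 0.07 and 0.09. In classical monocytes 5 of 12 were past 1.5-fold higher and 0 lower, where 3.96% and 4.81% of genes were (median 0.57 beside -0.0013). Nonclassical monocytes had 0 of 11 past it, where 8.87% of genes were (0.09 beside 0.06). In neutrophils 12 of 12 counted were above 0, as among those with few granule transcripts. Granule-rich neutrophils had 4 of 9 above 0 and 5 below (median -0.42 beside 0.06). There 1 was past 1.5-fold higher and 4 lower, where 7.75% and 4.94% of genes were. The share of all genes above 0 was not counted. The medians of mitochondrial UMIs were 5.03%, 2.91% and 4.11% in T cells. Both measures moved with the groups, and their part in the member ratios was not tested.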

How the data were processed

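The authors mapped reads with Cell Ranger to mm10, per the labels, and deposited raw UMI counts per gene and barcode for 3 libraries. The file headers name version 5.0.0. The files held no values of other samples. Kept cells had 200 genes or more, up to 90% of the highest gene number in their library and up to 7.5% mitochondrial UMIs, which left 48249945, 53770440 and 75832322 UMIs in the young, aged and aged-GA libraries. A gate took cells with at least 3 markers of a class, more than of any other class, at most 1 marker of another leukocyte class and at most 50% haemoglobin. This limit, settled with cell numbers known, and the maximum of genes stood in for a doublet caller. The gates took 90.39%, 73.82% and 77.11% of kept cells. Red cell barcodes had over 50% haemoglobin.

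UMIs were summed per gate and scaled to CPM. No pseudocount was used except 1 CPM in correlations, and 0 UMIs were taken as 3. Ratios with at least 20 expected UMIs were counted, with 1.5-fold as the threshold. Steps were tested on simulated data. Python 3.11.15, numpy 2.4.6, scipy 1.17.1, pandas 2.3.3 and matplotlib 3.10.9 were used. Gene overlaps came from GENCODE M21, promoters from RefSeq. Reads that map equally well to several genes are left out by Cell Ranger, which can lower genes with pseudogenes. Named were the 10 members, the 3 highest and lowest ratios past 1.5-fold of the wider list in the T, B, monocyte, neutrophil and erythroid gates, the 5 highest levels of list and members per lineage and the 2 nearest genes of each member. Prdx2, Cybb and Txnip in NK cells and neutrophils were named after their values were seen. The members and lists were chosen with earlier results of these data known. Alternatives changed gates, filters, totals, pseudocounts, centring and thresholds.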

Additional observations from a re-analysis of the deposited data

Results flagged for a closer look

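Hmox1, aged-GA against aged, had a log2 ratio of 0.80 in neutrophils and -0.81 in monocytes. It was flagged because the 2 classes moved in opposite directions under the same contrast, with 1 library on each side, and the difference between them was not tested.

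Barcodes with under 200 genes and over 50% haemoglobin, 941 in the young, 5460 in the aged and 3812 in the aged-GA library, entered no comparison. They held Gpx1 at 614.5, 394.7 and 315 CPM, in the same order of libraries as the erythroid gate, which was flagged as signal in data outside the gates.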

How the results depend on the processing

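With 1 library per group, no library could be left out, and no paired analysis was possible because each group is 1 library and leaves no spread to estimate. Of 1246 values of 78 member ratios under 16 alternatives, 1195 lay within the counting interval of the main ratio, 51 lay outside it and 0 of the 8 ratios past 1.5-fold changed sign. The alternatives of at least 5 UMIs expected, of no filter on low counts and of 2-fold change no ratio, so their values stayed by design. In the tallies that follow, the 2-fold alternative was judged at 2-fold. Gpx4 in monocytes, aged against young, stayed past 1.5-fold under 16 of 16 alternatives (1.10 to 1.34), and Txnrd1 in T cells under 13 and in B cells under 8 of 16. No alternative separated the monocyte subsets, and 42 of 43 young but 350 of 564 aged monocytes were nonclassical. Among nonclassical monocytes alone the ratio of Gpx4, given above, was below 1.10. Hmox1, aged-GA against aged, stayed past it in monocytes and in neutrophils under 14 each. The count of 5 member and gate pairs, aged against young, became 3 with a pseudocount of 10 CPM, 11 with at least 5 UMIs expected, 22 with no filter on low counts and 1 at 2-fold; with alternatives chosen after seeing the data it became 12 with no limit on other markers and 8 with no minimum of genes. The count of 3, aged-GA against aged, became 1 with no marker of another class allowed (the 3 ratios stayed past 1.5-fold, at -1.16, 0.88 and 1.23, and at least 2 had too few UMIs to be counted), 6 and 11 with the lower minimums of UMIs, 0 at 2-fold and 8 with no limit on other markers. Over all kept cells, the count of 7, aged against young, became 4 centred on the median gene, 4 at 2-fold and 4 with no minimum of genes, and the count of 6, aged-GA against aged, became 3 as a mean over cells and 3 at 2-fold. Gpx1 in erythroid cells, aged against young, ranged from -1.20 to -0.32. Centring changed the split of genes in neutrophils, aged against young, from 106 higher and 25 lower to 56 and 55, and in erythroid cells from 77 and 134 to 112 and 89. For aged-GA against aged it changed from 187 and 314 to 247 and 257 in T, 204 and 277 to 254 and 229 in B, 333 and 207 to 263 and 261 in NK, 246 and 203 to 163 and 284 in monocyte, 327 and 124 to 209 and 192 in neutrophil and 50 and 16 to 30 and 29 in erythroid gates. Depth limits Hmox1 in lymphoid cells, Srxn1 in all gates and each value of the 12 young neutrophils.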

Other observations

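Basophils were gated in 88 aged and 18 aged-GA cells and in 0 young cells, and entered no comparison of the 6 gates. They held Gpx4 at 744 and 597 CPM, above each of the 6 gates in the same libraries, and Srxn1 at 47.9 CPM (11 UMIs) and 41.1 CPM (2 UMIs). Gpx1 was 735 and 741 CPM there, Prdx5 357 and 165 CPM, Prdx1 139 and 61.7 CPM, and Hmox1 was found as 1 UMI in the aged and 0 in the aged-GA library.

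Within CD8 and CD4 T cells of the same library, Gpx4 was 158 and 234 CPM in the aged library, 167 and 218 CPM in the aged-GA library and 160 and 165 CPM in the young library. Gpx1 was lower in CD8 than in CD4 T cells in each library, at 125 and 143 CPM in the young, 121 and 165 CPM in the aged and 102 and 143 CPM in the aged-GA library.

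Across the same 17 points, the pair of members with the most similar levels was Nfe2l2 and Prdx5 (Pearson r = 0.95), and the least similar was Gpx1 and Txnrd1 (-0.57). These points share libraries, so the values are descriptions. The points include the erythroid gate of each library, where Gpx1 was 978 to 1730 CPM and Txnrd1 0.499 to 0.87 CPM. Nfe2l2 was 0 to 2.03 CPM and Prdx5 0.25 to 12.5 CPM there. What r would be without these gates was not computed.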
